A study of Homo sapiens with 36 samples.

Results

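The untreated A549 cells that were carried through the whole time course are described here. They make up 18 of the 36 libraries of the series, chosen as every library whose label gives no IL-1β treatment. A549 is an established line grown from a human lung adenocarcinoma. The untreated cells were kept in the same serum-containing medium as the cells given 1 ng/ml IL-1β, were split at the same interval, and were collected beside them at 6 times with 3 libraries each. The first collections fell at day 6, day 15 and day 21 of the treatment, and the later ones at 6, 15 and 30 days after the cytokine was withdrawn from the treated arm (post day 6, post day 15 and post day 30). With 21 days of treatment, the collections lie at culture days 6, 15, 21, 27, 36 and 51. None of the 18 libraries received cytokine, so "post" only places a library in time. The labels call the 3 libraries of a collection biological replicates, and no source used here says whether they were separate lineages from the start. All libraries come from 1 line.

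The untreated cells are the reference against which every effect of IL-1β in this design is read, so their own level and drift set what can be called an effect. A549 cells carry features of the distal lung epithelium, from which adenocarcinomas often arise, and are widely used as a model of alveolar type 2 cells, which make surfactant. The line is also known for a mutation in KEAP1, the adaptor that normally marks the transcription factor NRF2 for degradation, so that NRF2 target genes of the antioxidant response run at a high level. Genes of both kinds were examined here.

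Between 9116032 and 23570026 reads per control library were counted on genes, and 18303 genes had enough counts for a test. In 6 of the 18 libraries, mitochondrial genes took 17.7% to 24.6% of the counts on genes, against 6.46% to 7.75% in the other 12. The 6 were replicate 2 of day 6, replicates 1 and 2 of post day 6, replicates 2 and 3 of post day 15 and replicate 2 of post day 30. They also had the fewest reads, between 9116032 and 13428610 against at least 14372523, and 14464 to 15974 genes with 10 or more counts against at least 16808. The first principal component took 56.7% of the variance and placed these 6 libraries between 24.2 and 113.6, with the other 12 between -41.6 and -21.7. Because 1 of these libraries falls in the first 3 collections and 5 in the last 3, their kind and the time in culture are partly confounded. Mean TPM and test values are over all 18 libraries unless the 12 of low mitochondrial share are named. No pair of control libraries had identical counts.

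**Figure D1:**
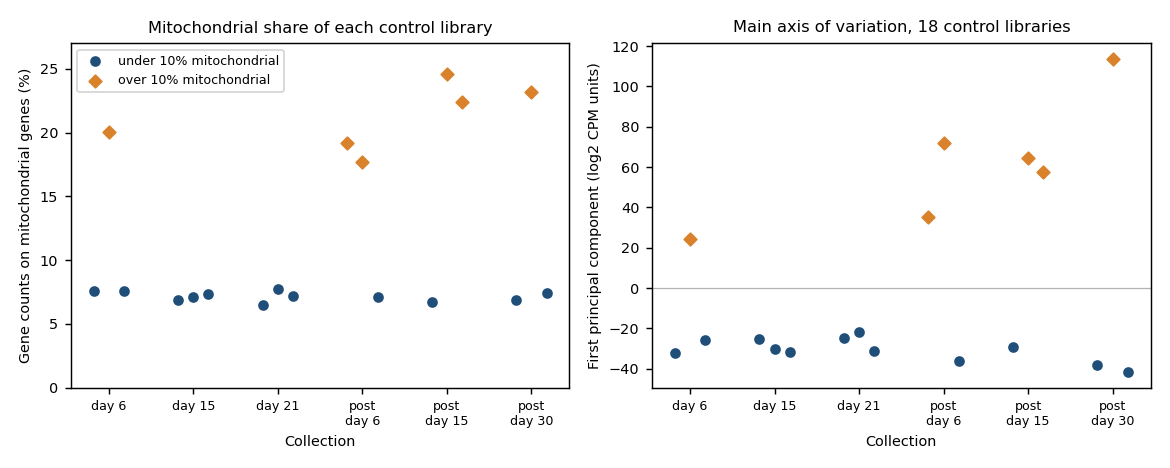
The left panel plots the percentage of gene counts on mitochondrial genes and the right panel the first principal component of log2 CPM, for each of the 18 control libraries by collection. The 6 libraries drawn as diamonds lie between 17.7% and 24.6% on the left and between 24.2 and 113.6 on the right, apart from the 12 circles on both.

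The untreated cells were epithelial by their keratins, but they lacked most markers of a mature lung cell. Levels are given as TPM, which scale reads by exon length and by the total of the library and so allow one gene to be set against another. Among 8 pan-epithelial markers, the simple-epithelium keratins KRT18, KRT8 and KRT7 reached 1550 ± 661, 1287 ± 543 and 1047 ± 316 TPM (mean ± SD, n = 18), and CDH1, which encodes E-cadherin, 106 ± 32.3 TPM. The epithelial adhesion molecule EPCAM was at 1.03 ± 0.395 TPM and KRT19 had 19 reads over all 18 libraries.

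Of 12 alveolar type 2 markers, 10 lay under 1 TPM. The surfactant protein gene SFTPC had 28 reads in all, SFTPA1 had none, SFTPB was at 0.348 ± 0.128 TPM, and NKX2-1, the master regulator of lung identity, had 19 reads. The markers above 1 TPM were ABCA3, the lipid transporter of lamellar bodies, at 7.63 ± 3.48 TPM, and LPCAT1, an enzyme of surfactant phospholipid synthesis, at 96.5 ± 34.3 TPM. Of 8 alveolar type 1 markers 4 were under 1 TPM, while CAV1, the scaffold protein of caveolae, stood at 255 ± 61.7 TPM. By these markers the cells held 2 lipid genes of the type 2 cell and almost no surfactant protein RNA. In bulk libraries, fewer cells that express a gene and less of its RNA per cell cannot be told apart.

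Secretory genes were a second feature of the line. Of 6 goblet markers, AGR2, which folds mucins, reached 131 ± 56.4 TPM, and the gel-forming mucins MUC5B and MUC5AC reached 32.2 ± 23.9 and 14 ± 8.71 TPM. TFF3 had no reads, and SPDEF, a regulator of goblet cells, was at 3.09 ± 2.28 TPM. The club cell secretoglobin SCGB3A2 was at 14 ± 9.46 TPM, and the 5 other club markers were under 1 TPM. SCGB3A2 ranged from 11.5 to 21.1 CPM (reads scaled to the library total, not to length) in the 6 libraries of high mitochondrial share and from 1.34 to 3.5 CPM in the other 12, so its level went with the kind of library.

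Among regulators of lineage, FOXA2, a pioneer factor of endoderm, was at 52.2 ± 21.5 TPM, SOX9 at 20.5 ± 5.19 and SOX2 at 14.3 ± 4.45 TPM. The gut and liver regulator HNF4A was at 4.66 ± 2.42 TPM, and the fibrinogen chains FGA and FGB, which hepatocytes secrete, at 16.9 ± 8.09 and 8 ± 2.19 TPM. Of 14 hepatocyte markers, 10 were under 1 TPM: ALB had 1 read and AFP and APOA2 had none. The intestinal regulator CDX2 had 1 read. The expression of liver genes was thus limited to a few members of the list.

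Markers of other cell types were close to nothing. All 6 basal markers were under 1 TPM, as were 5 of 6 ciliated, 5 of 6 neuroendocrine, 4 of 4 matched endothelial and 4 of 4 erythroid markers. Of 5 leukocyte markers, CD14 was at 10.3 ± 5.19 TPM and LYZ at 1.01 ± 0.442 TPM, while PTPRC, carried by all white blood cells, had 7 reads and CD3E had none. Of 9 fibroblast markers, only ACTA2, at 5.7 ± 1.61 TPM, was above 1 TPM. The cells nevertheless held RNA of mesenchymal proteins, with VIM (vimentin) at 368 ± 54.8, FN1 (fibronectin) at 36.1 ± 15.3 and CDH2 (N-cadherin) at 32.6 ± 5.84 TPM. The tumor suppressor genes CDKN2A and CDKN2B, which A549 is known to lack, had 0 reads in every control library. Over the reads of all 18 libraries, a count of 0 (a limit of 3 counts) allows up to 0.0107 CPM, which covers counting error only. Their neighbour MTAP was at 1.48 CPM, from 429 reads, but also under 1 TPM. The mean TPM of the 3 genes summed to 0.274.

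**Figure D2:**
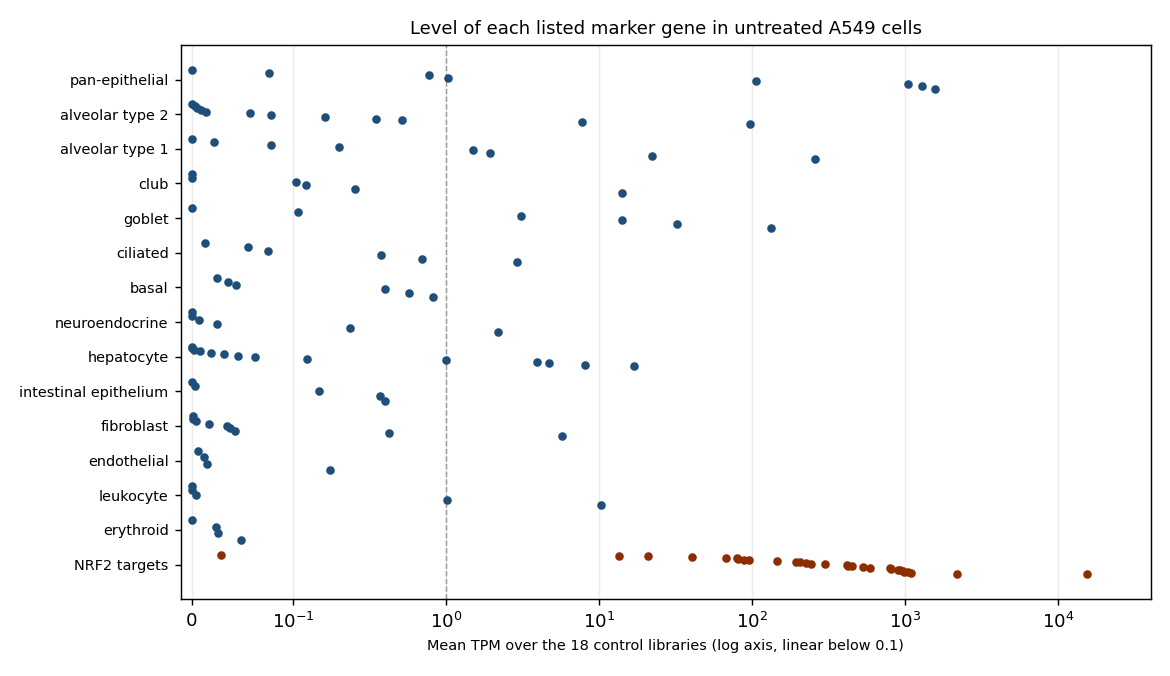
Each point is 1 marker gene, placed by its mean TPM over the 18 control libraries on a log axis that is linear below 0.1, with 1 row for each list and a dashed line at 1 TPM. KRT18, KRT8 and KRT7 lie above 1000 TPM, 10 of 12 alveolar type 2 markers lie under 1 TPM, and 29 of 30 NRF2 targets lie above 10 TPM.

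The most abundant RNAs came from the mitochondrial genome. Of the 15 genes with the highest mean TPM, 11 were mitochondrial, led by MT-ATP6, MT-ATP8 and MT-CO1, which encode subunits of ATP synthase and cytochrome oxidase. They were followed by MT-RNR2, MT-CO3, MT-ND4, MT-CO2, MT-ND4L, MT-CYB, MT-ND1 and MT-ND2. The others were FTL, the light chain of the iron store ferritin, and 3 pseudogenes, MTATP6P1, CTD-2328D6.1 and ENSG00000264281. MTATP6P1 is a nuclear copy of mitochondrial sequence that can share reads with MT-ATP6, so its level is uncertain. MT-ATP6 was at 19497 to 24176 TPM in the 12 libraries of low mitochondrial share and at 51929 to 85580 TPM in the other 6. The order also differed in those 12. There the mean was 26892 TPM for MT-CO1, 25346 for MT-CO3, 22775 for MT-RNR2 and 22681 for MT-ATP6. MT-ATP8, at 18704 TPM, lay below FTL, at 19974 TPM.

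Among nuclear protein-coding genes the order was FTL, ALDH1A1, TMSB10, GAPDH, ACTG1, ACTB and AKR1B10. FTL reached 15342 ± 6952 TPM, with 18189 to 21131 TPM in the libraries of low mitochondrial share and 2261 to 9872 TPM in the others. ALDH1A1, which makes retinoic acid and marks tumor cells with progenitor traits, was at 4965 ± 1235 TPM, and AKR1B10, a reductase of retinal and lipid aldehydes, at 2180 ± 649 TPM. TMSB10 was at 4645 ± 889 TPM, GAPDH at 3880 ± 1410 TPM and ACTB at 2246 ± 719 TPM. These SD include the difference between the kinds of library, so their overlap does not show that 2 genes were equal. In the libraries of high mitochondrial share ALDH1A1 was at 2885 to 4185 TPM and GAPDH at 1133 to 2610 TPM. In the others they were at 4838 to 6785 and 4363 to 5142 TPM. An aldehyde dehydrogenase and an aldo-keto reductase were thus among the most abundant nuclear protein-coding RNAs, beside actin and GAPDH. In all, 11288 protein-coding genes reached 1 TPM, 816 reached 100 TPM and 43 reached 1000 TPM.

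The antioxidant genes that NRF2 controls stood far above most genes. Of 30 NRF2 targets, 25 (83.3%) lay above 67.1 TPM, a level that 10.0% of the 12974 tested protein-coding genes reached. The median of the list was 356 TPM against 11.3 TPM over those genes. Such a share was not particular to this list. It was 100% for cytosolic ribosomal proteins, 78.6% for heat shock, 75% for G2/M and 57.9% for glycolysis genes. Other lists were low, with 4.17% for sterol synthesis and 4.55% for p53 targets. NQO1, which reduces quinones, was at 1043 ± 395 TPM, the thioredoxin reductase TXNRD1 at 972 ± 254, the aldose reductase AKR1B1 at 970 ± 426 and thioredoxin itself, TXN, at 928 ± 166 TPM. PGD, an enzyme that supplies NADPH, was close behind at 807 ± 171 TPM. Only CES1, a carboxylesterase, was under 1 TPM, with 9 reads. The list was written with earlier results of these data known, and its level is a description.

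The antioxidant response element, through which NRF2 binds, has the core TGACNNNGC. Among 19 members of the list with a RefSeq promoter, 5 held this core on either strand within the 250 bases before a start, or 26.3% of them, against 13.2% of the 27305 genes with a promoter and 22.2%, or 2 of 9, of the most expressed nuclear protein-coding genes with one. Windows around the core are shown for the glutathione and thioredoxin genes GCLM, GPX2 and TXNRD1 and for ME1, a source of NADPH, as examples of where the letters lie. PGD and another start of TXNRD1 also held the core. They are in GRCh38.p14, read along the strand of the gene from 5′ to 3′, with the core or its reverse complement in capitals.

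GCLM (chr1:93909440-93909480, minus strand): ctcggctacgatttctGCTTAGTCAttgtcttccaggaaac
GPX2 (chr14:64942843-64942883, minus strand): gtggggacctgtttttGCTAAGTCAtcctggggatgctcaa
ME1 (chr6:83431164-83431204, minus strand): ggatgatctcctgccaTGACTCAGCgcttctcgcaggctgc
TXNRD1 (chr12:104286914-104286954, plus strand): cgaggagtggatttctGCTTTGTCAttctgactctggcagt

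In these cells GCLM, the regulatory subunit of glutathione synthesis, was at 87.5 ± 25.8 TPM, GPX2, a glutathione peroxidase, at 40.1 ± 21.1 TPM, and ME1, the cytosolic malic enzyme, at 94.5 ± 16.3 TPM. These levels are under the median of the list. A match is a description of the letters and not a bound site, and its part in the level of a gene was not tested.

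Over 45 days of culture, the 6 collections were compared in a single test for each gene. With edgeR's quasi-likelihood F-test, 0 of 18303 genes (0.0%) passed an adjusted p under 0.05 with more than a 2-fold range between collections, and 570 (3.11%) had an unadjusted p under 0.05. Single libraries moved the latter count: it was 1867 (9.97%) without replicate 2 of post day 30, 1176 without replicate 3 of post day 6, 1139 without replicate 1 of post day 15, and 344 to 347 without any 1 library of day 21. The linear trend over culture day gave 0 calls (0.0%) and 1101 genes (6.02%) at an unadjusted p under 0.05, 848 of them with a positive slope (4.63%) and 253 with a negative one (1.38%). That count was 331 without replicate 2 of post day 30 and 2167 without replicate 2 of day 6, both of high mitochondrial share, and 2968 or 3027 without replicate 1 or 3 of post day 30. The split by direction also moved, to 390 positive and 251 negative with total counts as the scaling, 563 and 429 with the kind of library as a term, and 548 and 499 with the replicate number added. None of the 15 pairs of collections gave a call, with 151 to 1701 genes at an unadjusted p under 0.05. The median standard error of a log2 difference between 2 collections was 0.286 to 0.296. With adjustment over 18303 genes, 0 calls do not show that differences of 2-fold or more were absent. Ranges well above 2-fold, such as those of F5, FRMD3 and PDE3A given below, did not pass this test either. Less strict tests on the same counts called few: DESeq2 called 18 genes over the 6 collections and 1 for the trend, and edgeR's likelihood ratio test 17 and 3. The genes that both called over the collections included F5, PDE3A, CLDN2, FRMD3, LGSN, NRAD1 and ST6GAL2. They also included CORO2B and CPVL, whose highest collection means were 1.2 and 1.41 CPM. For the trend both called DLC1. In the 12 libraries of low mitochondrial share, with 6 residual degrees of freedom and a single library left at post day 6 and at post day 15, 0 genes passed over the 6 collections and 1192 of 19425 (6.14%) had an unadjusted p under 0.05. For the trend 1587 genes (8.17%) did, 986 with a positive slope (5.08%) and 601 with a negative one (3.09%), and 1 was called, RNA5S12, one of many near-identical copies of 5S ribosomal RNA, whose level is uncertain. With the kind of library and the replicate number as terms, 4 genes passed (0.0219%): F5, PDE3A, FRMD3 and KRT4. In the 18 libraries exposed to IL-1β, which also carry the cytokine and its withdrawal, the same 6-group test called 516 of 18503 genes (2.79%) and the trend 528 (2.85%). In the exposed libraries of low mitochondrial share these were 821 (4.33%) and 672 (3.55%) of 18943. The trend differed between the arms for 192 of 19180 genes (1.0%).

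Among genes with a symbol and a mean of at least 1 CPM, F5 had the smallest p. It encodes coagulation factor V and lies at chr1:169481189-169555826 (GRCh37, minus strand). Its levels at day 6 were 6.67, 7.63 and 6.08 CPM. At day 15 they were 1.03, 0.949 and 3.5 CPM, at day 21 0.61, 0.818 and 1.12, at post day 6 0.516, 0.779 and 0.791, at post day 15 0.506, 1.02 and 2.24, and at post day 30 1.42, 2.33 and 1.57 CPM. No later library reached the lowest of the day 6 libraries. The fitted collections were 3.22 apart on the log2 scale (unadjusted p = 2.71e-05, adjusted p = 0.248). The adjusted p was 0.0231 with the kind of library as a term, 0.00161 with the replicate number added, and 0.209 in the 12 libraries of low mitochondrial share. In the exposed arm, which shares no library with the control, F5 passed the 6-group test with a range of 4.24 (adjusted p = 0.00187). Those collections also differ by the cytokine and its withdrawal, which cannot be told apart there from time in culture.

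CLDN2, the channel-forming claudin of leaky epithelia, was also highest at day 6, with 58.8, 63.1 and 44.4 CPM against 16 to 39.3 CPM in the 15 later libraries. The day 6 libraries did not overlap the others, and the range was 1.31 (unadjusted p = 0.000818, adjusted p = 0.966). The adjusted p was 0.00654 with DESeq2, 0.00825 with the likelihood ratio test and 0.41 in the 12 libraries of low mitochondrial share. FRMD3, a FERM-domain protein of the membrane skeleton, was at 6.48, 10.1 and 5.73 CPM at day 6 and at 0.821 to 3.97 CPM later, again without overlap. Its range was 2.13 (adjusted p = 0.966), and 2.36 (adjusted p = 0.0159) with the kind of library and the replicate number as terms. In the 12 libraries of low mitochondrial share it was 2.88 (adjusted p = 0.141). ST6GAL2, a sialyltransferase, and the long noncoding RNA NRAD1 had ranges of 1.57 and 1.95, with quasi-likelihood adjusted p-values of 0.966 and 0.835.

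A second group was high at day 6, low at day 21 and higher again at post day 30. PDE3A, a phosphodiesterase that degrades cyclic AMP, was at 7.93, 9.15 and 10 CPM at day 6, at 2.83, 2.75 and 3.19 CPM at day 21, at 1.93, 2.42 and 2.71 CPM at post day 6, and at 6.87, 8.54 and 9.77 CPM at post day 30. The first and last collections overlapped each other and did not overlap day 21 or post day 6. Its range was 1.92 (unadjusted p = 0.000383, adjusted p = 0.966), 2.08 (adjusted p = 0.00443) with the kind of library and the replicate number as terms, and 1.75 (adjusted p = 0.29) in the 12 libraries of low mitochondrial share. KRT4, a keratin of stratified mucosa, was at 58.3, 62.6 and 58.7 CPM at day 6, at 25.3, 23.7 and 34.2 CPM at day 21 and at 49.5, 46.4 and 71.2 CPM at post day 30, with a range of 1.11 (adjusted p = 0.966; 0.0323 with both terms and 0.439 in the 12 libraries). HGD, an enzyme of tyrosine breakdown, went from 12.4 to 17.7 CPM at day 6 through 3.27 to 4.54 CPM at day 21 to 6.47 to 12.4 CPM at post day 30. NTRK3, the receptor of neurotrophin 3, followed the same order of collections, with 63.9 to 77.2, 34.5 to 36.5 and 54.2 to 89 CPM. At post day 6 replicate 3 stood apart for these 3 genes. It was the only library of low mitochondrial share there, so kind and replicate number cannot be told apart. KRT4 was at 24 and 23 CPM in the 2 of high mitochondrial share and at 45.3 CPM in the other, HGD at 1.68 and 2.86 against 9.41 CPM, and NTRK3 at 31.6 and 27.8 against 51.3 CPM. All libraries of day 15 were of low share. There replicate 3 was also the highest for KRT4 (33.2, 36.6 and 56.1 CPM) and HGD (8.5, 8.8 and 13.6 CPM). LGSN, a relative of glutamine synthetase expressed in the lens, had a range of 1.46 with the same shape (unadjusted p = 0.000344, adjusted p = 0.966; 0.41 in the 12 libraries). KRT4, HGD, NTRK3, FRMD3, AKR1C1 to AKR1C4, EMP1 and DKK1, and likewise CHAC1, DDIT3, STC2 and P4HA1 below, were chosen after their values were seen.

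The aldo-keto reductases of the AKR1C family, which act on steroids and prostaglandins, also had lower means at day 21 than at day 6 and post day 30. AKR1C1 was at 890, 722 and 722 CPM at day 6, at 423, 481 and 476 CPM at day 21, and at 804, 615 and 916 CPM at post day 30. The day 21 libraries of AKR1C1 lay below every library of those 2 collections. Those of AKR1C4, at 30.3 to 31.5 CPM, did not, since post day 30 went down to 26.5 CPM. At post day 6 AKR1C1 was at 392 and 368 CPM in the libraries of high mitochondrial share and at 693 CPM in the other, which was replicate 3. The ranges were 0.76 for AKR1C1, 0.80 for AKR1C2, 0.66 for AKR1C3 and 0.75 for AKR1C4, with unadjusted p-values of 0.00954, 0.00549, 0.0309 and 0.0932 and an adjusted p of 0.966 each. In the 12 libraries of low mitochondrial share the ranges were 0.89, 0.89, 0.79 and 0.88, with adjusted p-values of 0.213, 0.209, 0.271 and 0.141. The 4 genes are related neighbours on chromosome 10 and can share reads to differing degrees, so they are not independent. The exposed arm, which also carries the cytokine and its withdrawal, gave ranges of 1.63, 2.27, 1.57 and 1.80 with adjusted p-values of 0.0042, 0.00073, 0.00338 and 0.0165. AKR1B10, a related enzyme and also an NRF2 target, stayed within 1257 to 1656 CPM in all 18 control libraries, with a range of 0.18 (adjusted p = 0.966).

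EMP1, an epithelial membrane protein, had the opposite order. It was at 4.22, 4.32 and 6.08 CPM at day 6, at 10.9, 10.9 and 10.8 CPM at day 21, at 11.3, 9.87 and 4.58 CPM at post day 6, and at 5.04, 5.17 and 4.39 CPM at post day 30. Every library of day 21 was above every library of day 6 and of post day 30 (range 1.16, unadjusted p = 0.00657, adjusted p = 0.966; range 1.25 and adjusted p = 0.141 in the 12 libraries). Its high values at post day 6 were those of replicates 1 and 2, the libraries of high mitochondrial share. Kind and replicate number cannot be told apart in that collection. DKK1, a secreted inhibitor of Wnt signaling, was instead highest in the last collection, with 156, 136 and 221 CPM against 80.2 to 139 CPM before, and its highest earlier library reached above the lowest of the last (range 0.82, adjusted p = 0.966; 0.95 and 0.512 in the 12 libraries).

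**Figure D3:**
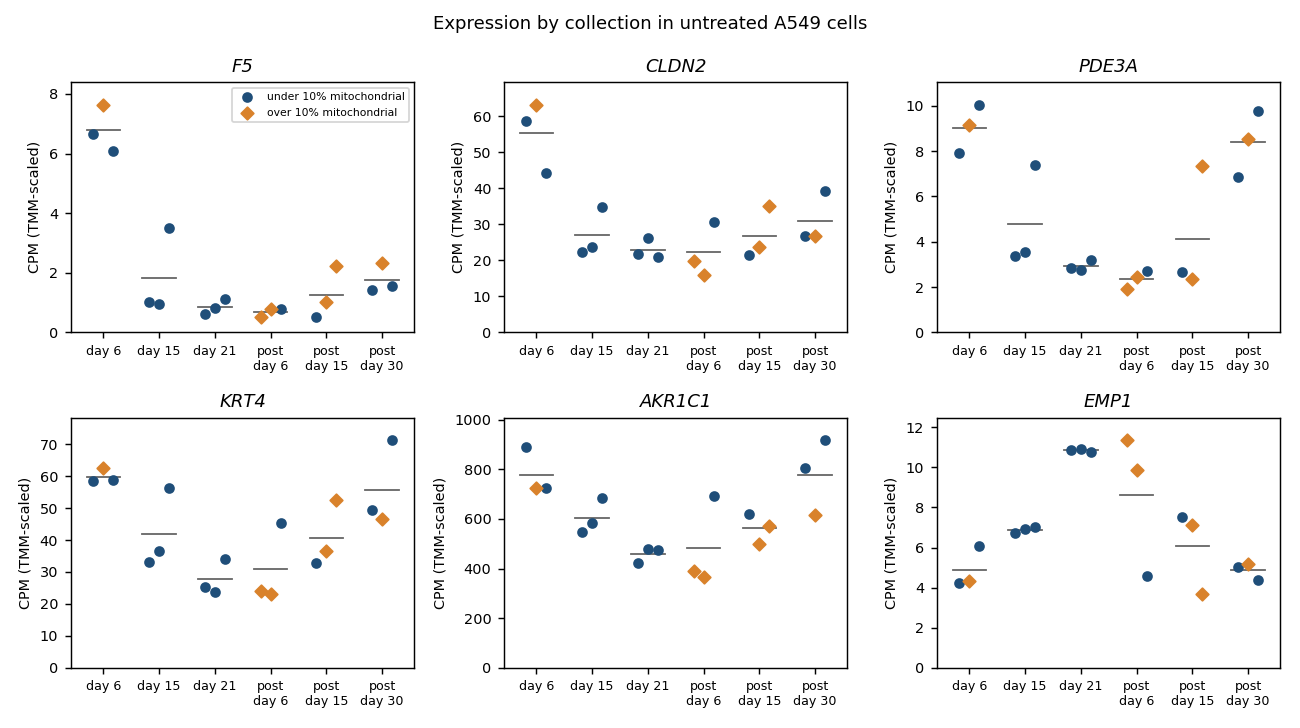
Each panel plots the CPM of 1 gene in the 18 control libraries by collection, with the mean of each collection as a line and the libraries of high mitochondrial share as diamonds. F5 and CLDN2 are highest at day 6 without overlap, PDE3A, KRT4 and AKR1C1 are lower at day 21 than at day 6 and post day 30, and EMP1 is higher. At post day 6 the circle, which is replicate 3, lies apart from the diamonds for KRT4, AKR1C1 and EMP1.

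For the linear trend, DLC1 had the smallest p. It encodes a GTPase-activating protein that restrains small GTPases of the cytoskeleton. Its levels were 7.17, 5.09 and 5.45 CPM at day 6, 4.93, 5.2 and 3.81 CPM at day 21, and 3.25, 2.07 and 2.24 CPM at post day 30. Every library of the last collection lay below every library of the 5 earlier ones. The fitted change over the span was -1.17 (standard error 0.20, unadjusted p = 1.06e-05, adjusted p = 0.194), and in the 12 libraries of low mitochondrial share -1.22 (adjusted p = 0.0643). The adjusted p was 0.0122 when all 36 libraries shared the estimate of spread. In the exposed arm the change was -0.01 (standard error 0.24), and the difference between the arms passed its own test (adjusted p = 0.0312).

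FBN2, a fibrillin of the extracellular matrix, was at 10.3, 7.12 and 7.68 CPM at day 6 and at 5.93, 4.53 and 3.81 CPM at post day 30, with a change of -0.91 (standard error 0.20, adjusted p = 0.671). In the exposed arm its change of -1.59 passed the test (adjusted p = 0.000147). Changes in that arm, here and below, also carry the cytokine and its withdrawal. PELI1, a ubiquitin ligase of interleukin-1 and Toll-like receptor signaling, was at 1.7 to 2.75 CPM at day 6 and at 0.787 to 1.43 CPM at post day 30, with changes of -1.04 in the control and -1.71 in the exposed arm (adjusted p = 0.671 and 0.00169). The fitted values were -0.96 for STON2, an endocytic adaptor, -0.73 for CRACD, an inhibitor of actin capping, -0.47 for TNFRSF10A, a receptor of the death ligand TRAIL, and -0.78 for the pseudogene RPS4XP13, each with an adjusted p of 0.671. RPS4XP13 can share reads with RPS4X. In the 12 libraries of low mitochondrial share the changes were -0.90 for FBN2, -1.16 for PELI1 and -0.95 for STON2, with adjusted p-values of 0.381, 0.381 and 0.208. AHSA2P, a pseudogene related to a cochaperone of HSP90, had a change of 0.50 (adjusted p = 0.671) and of 0.70 in the exposed arm (adjusted p = 0.0385).

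COL1A1, the main chain of type I collagen, was at 0.944, 1.02 and 1.43 CPM at day 6 and at 3.36, 2.33 and 1.43 CPM at post day 30. Its change was 1.10 in the control (adjusted p = 0.671; 1.13 and 0.413 in the 12 libraries of low mitochondrial share) and -1.14 in the exposed arm (adjusted p = 0.00854), and the arms differed (adjusted p = 0.000902). Of the 9 fibroblast markers, the other one with enough counts for a test was ACTA2, the actin of smooth muscle, at 7.22 to 19.2 CPM over the 18 libraries. LSM3P3, a pseudogene, had a fitted change of 3.34, and 1 library decided it: it was at 11.3 CPM in replicate 2 of post day 30, a library of high mitochondrial share, and at 0.172 to 2.77 CPM elsewhere. Without that library the fitted change was 1.00.

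**Figure D4:**
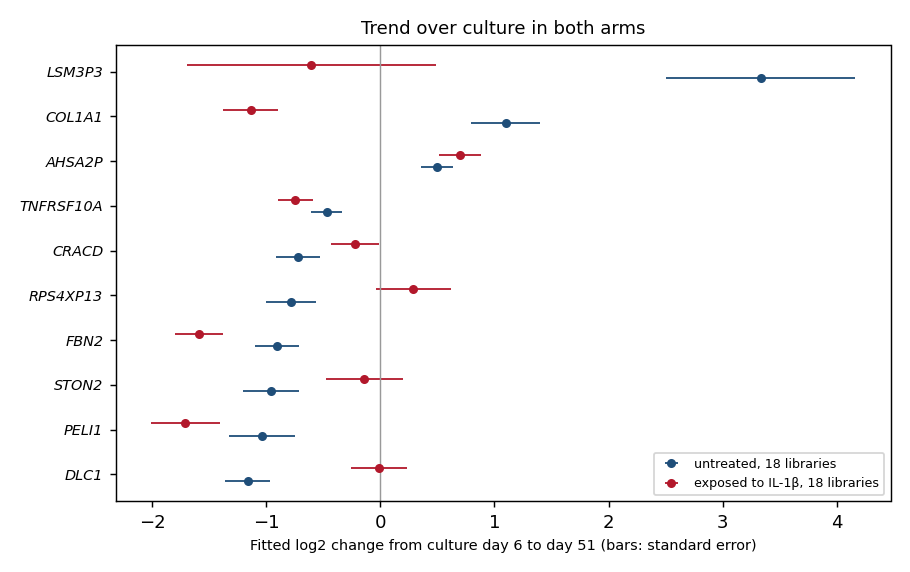
Points give the fitted log2 change from culture day 6 to day 51 and bars its standard error for the 10 genes named for the trend, in the 18 untreated libraries (blue) and the 18 libraries exposed to IL-1β (red). DLC1 lies at -1.17 in untreated and -0.01 in exposed cells, and COL1A1 at 1.10 and -1.14.

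No list of genes had a called member, and most had few members even at an unadjusted p under 0.05. In the 6-group test, where 3.11% of all genes reached that level, 6 of 23 tested genes of the integrated stress response did, but for those looked at 1 library decided the range. CHAC1, a glutathione-degrading enzyme, was at 36.9 CPM in replicate 3 of day 15 and at 0 to 2.54 CPM in the other 17 libraries. DDIT3, which encodes the stress factor CHOP, was at 39 CPM there and at 3.67 to 6.89 CPM elsewhere, and STC2, a secreted glycoprotein, at 612 CPM there and at 145 to 226 CPM elsewhere. The counts were 5 of 20 for hypoxia response, among them P4HA1, a collagen prolyl hydroxylase, which was at 119 to 181 CPM in the libraries of high mitochondrial share and at 84.2 to 127 CPM in the others, and 3 of 4 tested goblet genes, MUC5B, MUC5AC and AGR2. They were 4 of 19 for complement and coagulation, namely F5, C5, FGA and FGB, and 2 of 24 for sterol synthesis, among them INSIG1, a brake on that pathway. Cell cycle genes gave 0 of 19 for S phase and 0 of 20 for G2/M, cytosolic ribosomal proteins 0 of 54, and the nuclear genes of the respiratory chain 0 of 33. In the 12 libraries of low mitochondrial share, where the background was 6.14%, the counts were 3 of 23 for the integrated stress response, 7 of 20 for hypoxia response, 3 of 4 for goblet, 1 of 19 for complement and coagulation and 4 of 24 for sterol synthesis. Of the sterol genes, 2 had a negative trend at that level over all 18 libraries and 6 in the 12. The median trend over all genes was 0.02, that of the hypoxia list 0.17 and that of the sterol list -0.28.

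Genes that the study reads as markers of the epithelial or mesenchymal state varied in the untreated cells as well. CDH1 ranged from 179 to 311 CPM over the 18 libraries, JUP, which encodes plakoglobin, from 32.1 to 173 CPM, KRT18 from 940 to 2437 CPM, VIM from 547 to 1064 CPM and FN1 from 128 to 385 CPM. Part of these ranges went with the kind of library. VIM was at 721 to 1064 CPM in the 6 libraries of high mitochondrial share and at 547 to 704 CPM in the other 12. JUP was at 58.1 to 173 CPM in those 12, so its lowest value came from a library of high share. By TPM, whose total includes the mitochondrial genes, KRT18 was at 479 to 1150 in the 6 and at 1511 to 2472 in the 12. At day 15, JUP was at 58.1, 59.4 and 163 CPM and FN1 at 141, 128 and 385 CPM, so that 1 library of a collection could stand far from the other 2.

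That library, replicate 3 of day 15, lay near one end of the main axis among the 12 libraries of low mitochondrial share. The axis took 46.3% of their variance over 11407 genes, and the next one 12.3%. Replicate 3 of post day 30 (21.2), replicate 3 of day 15 (18.4) and replicate 1 of day 6 (15.0) lay at one end, and the 3 libraries of day 21 (-15.1, -14.0 and -7.10) and replicates 1 and 2 of day 15 (-14.0 and -13.2) at the other. Thus libraries of 1 collection fell at both ends. The genes below were chosen for their weight on this axis and are described without a test.

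Among the 25 genes leading the first end were the mucin gene MUC5B, the complement gene C5, the collagen genes COL4A3 and COL4A4 and the kinase gene PDK4. The mucin MUC5B was at 613, 717 and 152 CPM at day 6, at 141, 90.1 and 289 CPM at day 15, at 116, 70.2 and 106 CPM at day 21 and at 246, 124 and 247 CPM at post day 30. The complement component C5 was at 41, 40.6 and 103 CPM at day 15 and at 67.7, 106 and 118 CPM at post day 30. The copper carrier ceruloplasmin, CP, was at 66.1, 60.1 and 189 CPM at day 15, and PDK4, a kinase that turns cells from glucose to fat oxidation, at 13.4, 12.7 and 51.3 CPM. In each case the third library stood apart. TSC22D3, a glucocorticoid-induced regulator, was at 67 CPM in that library and at most 13.6 CPM in the other 17. The adhesion molecule CEACAM6, the protease inhibitor SLPI, the water channel AQP3 and the receptor ERBB3 were on the same side.

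Among the 25 genes leading the opposite end were FOSL1, CPA4, EREG, AXL and the heat shock gene HSPA1B. FOSL1, the AP-1 subunit FRA-1, was at 47.7, 46.2 and 12.4 CPM at day 15 and at 24.6, 21.6 and 9.25 CPM at post day 30. The EGF receptor ligand EREG was at 139, 128 and 86.1 CPM at day 15, and the receptor kinase AXL at 442, 418 and 238 CPM. CPA4, a carboxypeptidase, was at 24.6, 25.9 and 8.68 CPM. AREG, another ligand of the EGF receptor, was on the same side, and its reads can be shared with the copy AREGB. The order within day 15 was therefore the reverse of that of MUC5B and C5.

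**Figure D5:**
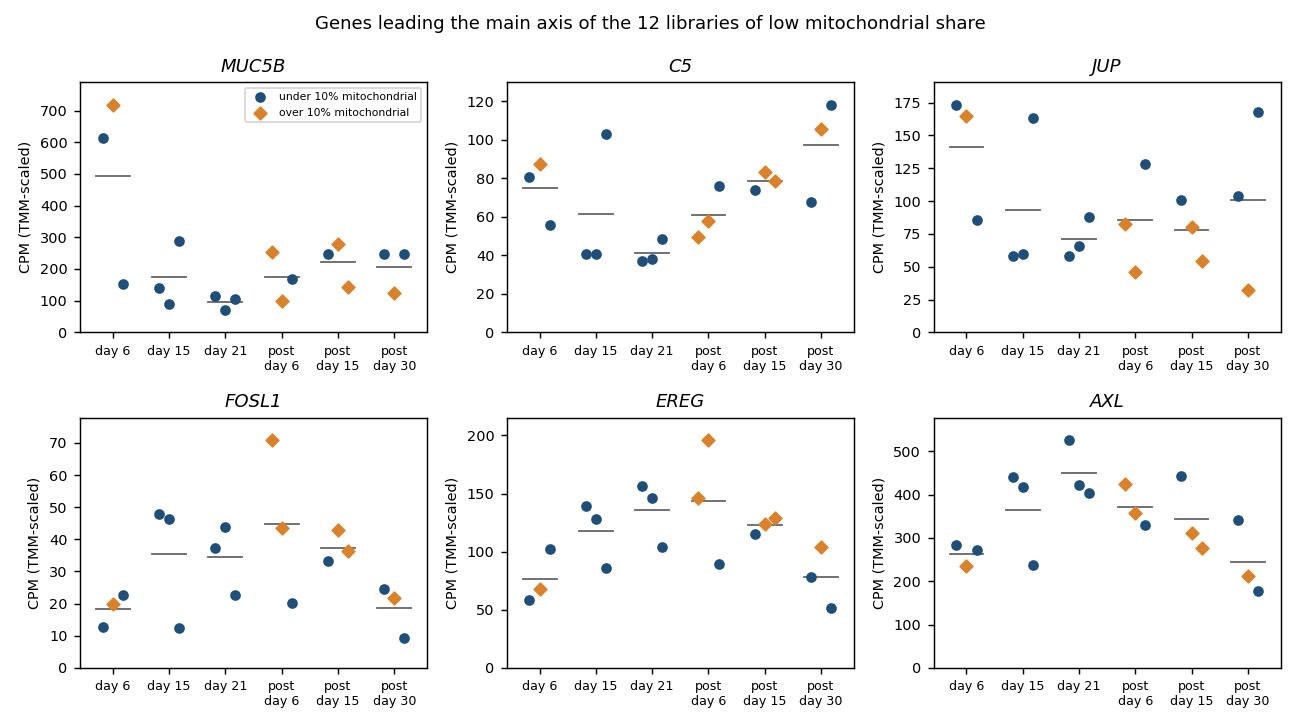
Each panel plots the CPM of 1 gene in the 18 control libraries by collection, with the mean of each collection as a line and the libraries of high mitochondrial share as diamonds. At day 15, replicate 3 (rightmost) is above the other 2 for MUC5B, C5 and JUP and below them for FOSL1, EREG and AXL.

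The same genes could be read in the 18 libraries of the exposed arm, which were not used to choose them. For each library, the mean log2 level of the 25 leading genes of the second end was taken from that of the 25 of the first. At day 15 this difference was -1.42, -1.35 and 1.13 in the control and -3.91, -3.89 and -3.26 in the exposed libraries. At post day 6 it was -1.63, -1.75 and 0.05 against -3.72, -4.12 and -2.20, and at post day 30 it was -0.04, -0.56 and 1.38 against -1.92, -1.90 and -0.34. At day 6 it was 0.92, 0.64 and -0.32 against -1.69, -1.63 and -3.35. The highest library was replicate 3 in both arms at day 15, day 21, post day 6 and post day 30. It was replicate 1 in the control and replicate 2 in the exposed arm at day 6, and replicate 1 and replicate 3 at post day 15. What the libraries of 1 number and collection share beyond the number is not given in the sources used here, and its part in these values was not tested.

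The 6 libraries of high mitochondrial share were also set against the others of their own collections, as a description without a test. In the 4 collections that hold both kinds, 26.9% of the 18303 genes were higher in the high-share libraries in all 4 and 28.7% were lower. Among these genes, with the same direction in all 4, 832 were more than 1 log2 higher by mean difference and 1660 more than 1 log2 lower. The mitochondrial genes themselves chose the libraries and are left aside. Among nuclear genes, 19 of 33 of the respiratory chain, 11 of 19 glycolytic genes and 14 of 29 tested NRF2 targets were lower in all 4. Of 14 heat shock genes, 7 were higher in all 4 and 1 was lower. When protein-coding genes were split into 4 equal groups by exon length, the median difference was -0.18 in the shortest, -0.08 and -0.01 in the next ones and 0.12 in the longest. GAPDH, often used as a reference gene, was at 1735 to 3346 CPM in the high-share libraries and at 3384 to 3907 CPM in the others.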

How the data were processed

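Counts per Ensembl gene were deposited for each library. They are raw: per the labels and the study's methods, poly(A) libraries were sequenced single-end on an Illumina HiSeq, and the authors used bcl2fastq 2.17, TopHat2 2.0.14 with Bowtie2 2.2.5 on GRCh37, and HTSeq 0.6.1. The strand setting and annotation release are not given in the sources used here. Groups and replicate numbers came from the labels, and culture days add the 21 days of exposure to the days after withdrawal. Summary lines of the counter were left out. Symbols, positions and exon lengths were taken from GENCODE 44 lifted to GRCh37 (55665 of 63677 genes matched), so lengths, and TPM computed from them, are approximate.

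Genes were kept by filterByExpr, scaled by TMM and fitted with edgeR 4.0.16 (R 4.3.3) to the 18 control libraries, with 12 residual degrees of freedom. The tests were one of the 6 groups, one of a slope on culture day and 15 pairs, adjusted by Benjamini-Hochberg over all genes tested. Calls needed an adjusted p under 0.05 and a log2 range or change beyond 1. The trend was also fitted to the 18 exposed libraries, and its difference between the arms to all 36. CPM used the same scaling. The first principal component of the low-share libraries used genes at 5 CPM or more. Versions were Python 3.11.15, pandas 2.3.3, numpy 2.4.6 and matplotlib 3.10.9. The code was tested on simulated counts. Alternatives were DESeq2 1.42.0, edgeR's likelihood ratio test, other scalings and filters, a replicate block, the kind of library as a term, all 36 libraries, and leaving out each replicate. A library was taken as of high mitochondrial share above 10% of counts on mitochondrial genes.

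The members, lists, tests and alternatives were chosen with earlier results of these data known. Named genes were the 15 of highest mean TPM, the markers of each list, and, since none was called, the 10 of smallest p in each test with a symbol and at least 1 CPM. Others are said to be chosen after their values were seen. The labels call the replicates biological, and p-values measure the spread between these libraries. Promoter sequences were taken from RefSeq on GRCh38.p14. A few genes of these lists and tests are not reported here.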

Additional observations from a re-analysis of the deposited data

How the results depend on the processing

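Another scaling (DESeq2 size factors or total counts), removal of the mitochondrial genes and a minimum of 10 counts in every library left the 6-group test, the trend and the pairs at 0 calls each. Total counts alone moved the median trend of all genes from 0.02 to -0.12. With no filter on low counts, 1 gene passed over the 6 collections and 1 in the pairs. DESeq2 called 18 genes over the 6 collections, 1 for the trend and 23 in the pairs, and edgeR's likelihood ratio test called 17, 3 and 25. With the kind of library as a term the calls were 1 over the 6 collections, 0 for the trend and 4 in the pairs. All 36 libraries together gave 1, 1 and 4. The 12 libraries of low mitochondrial share gave 0, 1 and 42, where a collection of a single library is assumed to vary like the others. Leaving out a replicate gave 0 to 1 calls over the 6 collections, 0 for the trend and 0 to 4 in the pairs. The call over the 6 collections was ENSG00000261578 without replicate 3 of day 6 and F5 without replicate 3 of day 15. At an unadjusted p under 0.05, 1101 genes had a trend, and the exposed arm gave 516 calls over its 6 collections. Both of these settings were added after the data were seen. The difference in trend between the arms went from 192 calls to 468 with the kind of library as a term. The cause of these shifts was not tested.

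A replicate block in the fit gave 0 calls over the 6 collections, 0 for the trend and 3 in the pairs, and 240 for the difference between the arms. With the kind of library added they were 4, 0 and 9. Of 45 pairs of libraries with the same number, 24 had deviations from their group means that correlated above 0.1 (mean 0.13, from -0.49 to 0.76), against 23 of 90 pairs with other numbers (mean -0.07), and 11 of 18 libraries correlated best with one of their own number. This is a hint of pairing, but not every pair was above 0.1 and the labels give no shared source, so the block was kept as an alternative. Depth limits the genes near 1 CPM, which include F5 and COL1A1, most strongly in the 6 libraries with the fewest reads.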
